A study of Drosophila melanogaster with 2 samples.

Results

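Cnc, the fly counterpart of the vertebrate NRF transcription factors, was mapped by chromatin immunoprecipitation and sequencing, and is described here at 9 genes. Their products, or the counterparts of these in other animals, pair with, degrade or process Cnc or a related factor. Whether each acts on Cnc in the fly was not tested here. The 9 genes are maf-S, Keap1, Cul3, Roc1a, slmb, sgg, TER94, Pngl and rngo, taken by symbol from 13945 protein-coding genes on 6 chromosome arms. The chromatin came from whole wandering larvae of the last instar, males and females together, of a transgenic line that expresses Cnc with eGFP fused to its C terminus, and it was precipitated with an antibody to GFP. There was 1 group with 2 biological replicates, so every library carried the transgene, and no untagged line or second condition was analysed here. In whole larvae the tissues cannot be told apart, and more cells with a bound site cannot be told apart from stronger binding in fewer cells. The files hold peaks and no read counts, so the sequencing depth is unknown, and with 1 group no test was made: shares of members are set beside those of all genes as a description. A peak's height is the authors' signal value, a score relative to a control, on a scale that the labels and file headers do not state. The reproducible list held 6153 peaks, which were the highest of the 30000 pooled peaks, so the value of a reproducible peak is its value in the pooled list. Each replicate has its own list of 30000 peaks with its own signal values, and ranks are therefore given beside them.

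Cnc belongs to the cap'n'collar family of basic leucine zipper proteins, which bind DNA as heterodimers with small Maf proteins. In the Keap1 arm of its control, Keap1 holds the factor in the cytoplasm and, as the adaptor of a ligase built on Cul3 and a RING protein, marks it for the proteasome until oxidants or electrophiles disable Keap1. In mammals a further ligase, with the F-box protein β-TrCP (Slmb in flies), recognises NRF2 once the kinase GSK3 (Sgg in flies) has phosphorylated it. A related NRF factor of mammals, and its counterpart in Caenorhabditis elegans, resides in the endoplasmic reticulum and is drawn out by p97 (TER94), freed of its glycans by NGLY1 (Pngl) and cut by the protease DDI2 (Rngo). Feedback on Keap1 and on small Maf genes by the factors they control is known in vertebrates.

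All 9 genes had a reproducible summit in the gene or within 5 kb of it, a property shared by 56.5% of all protein-coding genes. All 9 also had a reproducible summit within 1 kb of an annotated transcription start site (TSS), against 31.9% of all protein-coding genes. That share was 25.9% for genes with 1 TSS (the class of maf-S, Roc1a, slmb and Pngl), 42.8% with 2 (Keap1 and rngo), 57.4% with 3 (Cul3 and TER94) and 67.5% with at least 4 (sgg). Where no TSS of another protein-coding gene was allowed to lie nearer to the summit, 8 of the 9 remained, against 23% of all genes, and maf-S was the exception. In height the genes' highest promoter peaks ran from 206 at Roc1a to 1009 at sgg, while the reproducible list ran from 205.75 to 7349. Each gene's highest peak within 1 kb of a TSS had a median of 425 over the 9 genes and of 446 over the 4449 genes that had one. Among the highest 3076 reproducible peaks, 5 of the 9 genes had such a summit (Keap1, slmb, TER94, rngo and sgg), against 20.3% of all genes. The promoter peaks thus fell into a high set of slmb, sgg, Keap1 and TER94, with rngo between, and a low set of Pngl, maf-S, Cul3 and Roc1a near the bottom of the list.

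**Figure D1:**
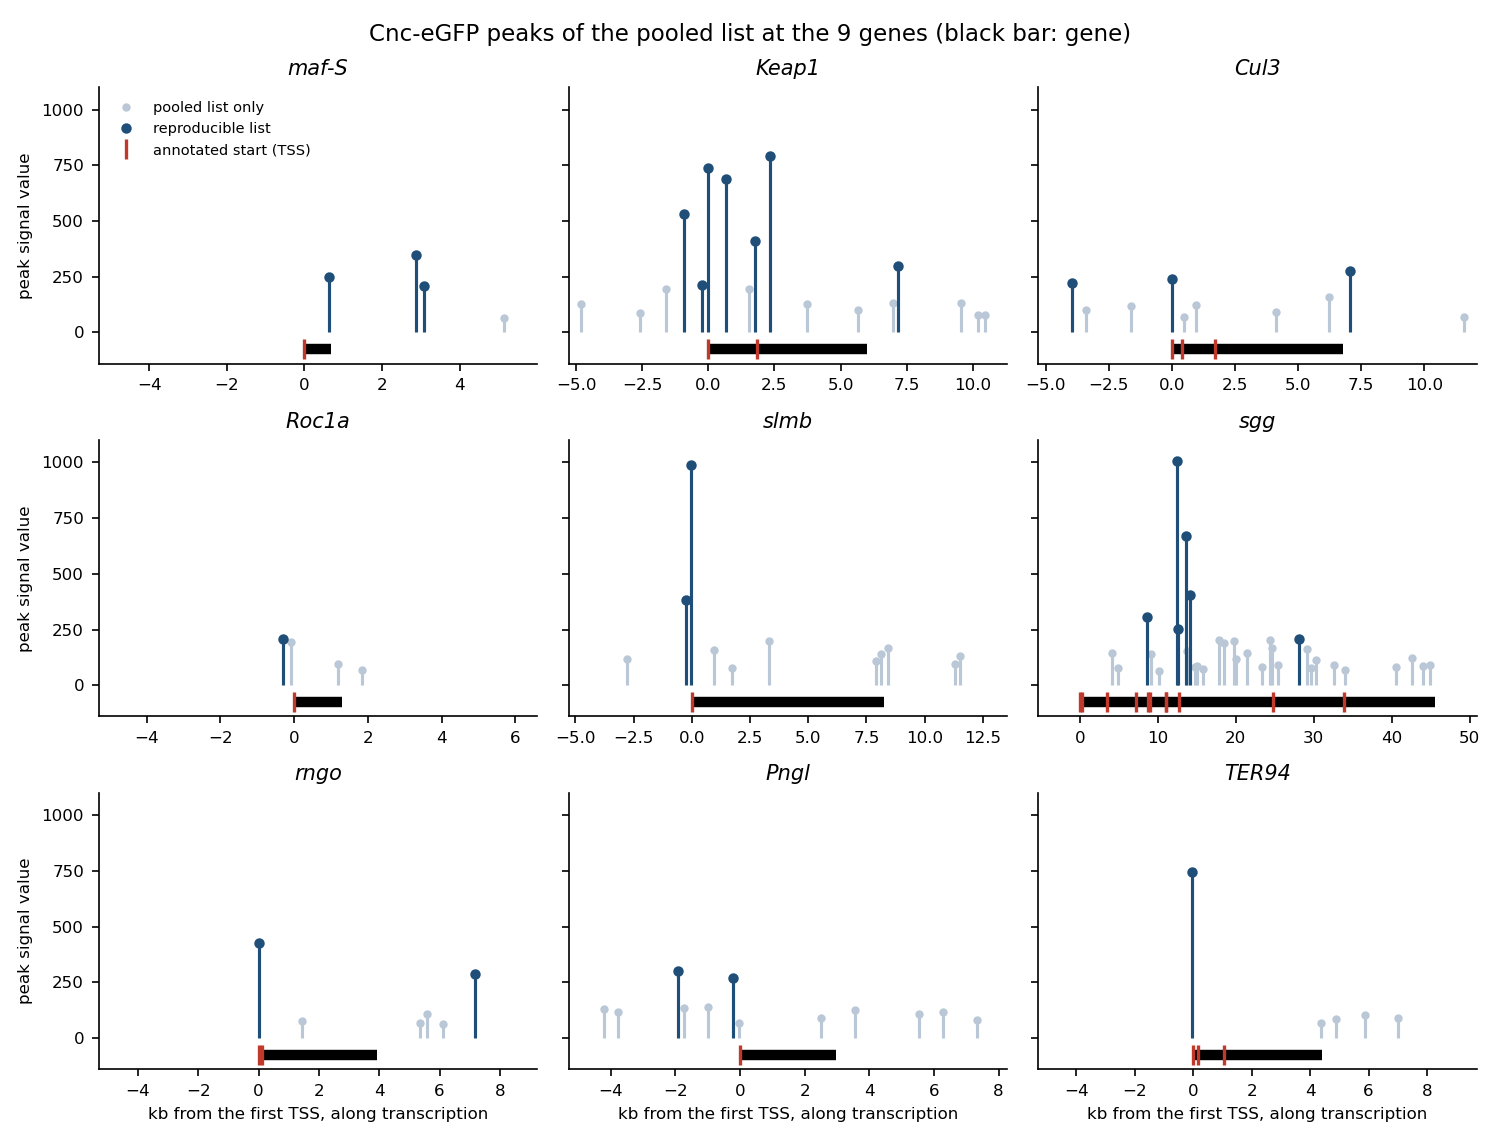
Peaks of the pooled list at the 9 genes, by the distance of the summit from each gene's most upstream TSS (kb, along transcription; the range differs by gene) and the signal value. Dark stems are reproducible peaks and light stems are in the pooled list only; the black bar is the gene and red ticks are its TSSs. The highest stems are 1009 at sgg and 990 at slmb, Keap1 has a run of 6 reproducible summits around its TSSs, and Roc1a has 1 of 206.

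The sequences under the peaks were searched on both strands for 8 motifs, of which the main one was TGACNNNGC, the core of the site of a Cnc-Maf heterodimer, here the Cnc-Maf core. The whole consensus searched was TGACTCAGC, which is also a Cnc-Maf core match and here overlaps the AP-1 motif TGANTCA. The others were the CRE motif TGACGTCA, the E-box CACGTG, the DRE motif TATCGATA of DREF-bound housekeeping promoters, the M1BP motif GGTCACAC and the GAGA motif GAGAGAG. Positions are on dm6, sequences are from the RefSeq assembly on the plus strand, and capitals mark motif matches. The first set shows the 4 matches to the Cnc-Maf core found under members' reproducible peaks outside untranslated sequence. They are the highest Keap1 peak (chr3R:17077581-17077700, in an intron), the upstream part of the Cul3 promoter peak (chr2L:15272025-15272193), an intronic summit of sgg (chrX:2648086-2648186) and a summit beyond the 3′ end of rngo at the promoter of eIF4H1 (chrX:16448562-16448662).
Keap1 highest peak: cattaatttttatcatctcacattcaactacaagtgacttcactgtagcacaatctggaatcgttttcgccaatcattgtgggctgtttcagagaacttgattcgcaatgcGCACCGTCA
Cul3 upstream of the TSS: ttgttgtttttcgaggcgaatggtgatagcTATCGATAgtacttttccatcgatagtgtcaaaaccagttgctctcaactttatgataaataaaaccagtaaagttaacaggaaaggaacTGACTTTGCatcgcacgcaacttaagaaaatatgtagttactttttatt
sgg intronic summit: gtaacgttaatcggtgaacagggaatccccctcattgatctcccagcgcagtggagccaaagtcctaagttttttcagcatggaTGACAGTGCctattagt
rngo flank at eIF4H1: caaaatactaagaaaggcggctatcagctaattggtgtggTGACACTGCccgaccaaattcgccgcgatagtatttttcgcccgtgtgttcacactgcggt
The match lay 85 bp from the Keap1 summit, at its peak's edge, 137 bp from the Cul3 summit, 38 bp from the sgg summit and 6 bp from the summit near eIF4H1. The DRE match in the Cul3 sequence lay 46 bp from the summit. A Cnc-Maf core match occurred in 3.28% of windows of 120 bp, 4.89% of windows of 169 bp and 2.73% of windows of 101 bp centred on all 6153 reproducible summits. Matches to this core were thus uncommon at these window lengths over the whole list.

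The second set shows the DNA between divergent promoters, since the peaks there lie near the TSS of a neighbour as well. It covers the whole interval between Keap1 and kuk (chr3R:17079946-17080243), between slmb and CG5793 (chr3R:21127486-21127572) and between Cdc50 and rngo (chrX:16441297-16441432). The summits of 739 at Keap1 and 990 at slmb lay inside these intervals, while that of 425 at rngo lay 29 bp inside the gene. The set ends with the window around the highest sgg summit (chrX:2646351-2646451), which is intronic and held none of the 8 motifs.
Keap1 to kuk: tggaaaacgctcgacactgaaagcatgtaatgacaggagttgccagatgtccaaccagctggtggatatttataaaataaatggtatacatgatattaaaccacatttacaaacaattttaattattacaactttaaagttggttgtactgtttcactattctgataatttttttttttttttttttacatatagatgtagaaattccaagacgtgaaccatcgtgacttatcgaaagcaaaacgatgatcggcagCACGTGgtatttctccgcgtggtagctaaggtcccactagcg
slmb to CG5793: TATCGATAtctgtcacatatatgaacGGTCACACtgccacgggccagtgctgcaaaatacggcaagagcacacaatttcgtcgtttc
Cdc50 to rngo: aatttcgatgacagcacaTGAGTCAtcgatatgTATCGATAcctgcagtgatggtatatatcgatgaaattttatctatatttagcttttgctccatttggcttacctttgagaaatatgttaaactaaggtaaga
sgg highest summit: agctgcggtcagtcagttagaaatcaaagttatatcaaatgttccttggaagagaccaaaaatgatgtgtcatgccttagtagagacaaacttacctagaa
The capitals are an E-box between Keap1 and kuk, a DRE and an M1BP motif between slmb and CG5793, and an AP-1 and a DRE motif between Cdc50 and rngo. Windows of the same length centred on all reproducible summits held an E-box in 3.12% (298 bp), a DRE in 2.18% and an M1BP motif in 0.926% (87 bp), and an AP-1 motif in 3.38% and a DRE in 3.56% (136 bp). No Cnc-Maf core match stands in any of the 3 intervals. Over all reproducible summits, 8.65% of windows of 298 bp, 3.77% of 136 bp and 2.21% of 87 bp held one. Its absence here is thus the common case.

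Over windows of 50 bp to either side of the summit, 2 of the members' 27 reproducible peaks held a Cnc-Maf core match, those of sgg and of the rngo flank shown above, against 2.73% of all 6153. The whole consensus stood in 0 of 27 windows and in 0.0975% of all, and AP-1 in 0 of 27 and 2.47% of all. A DRE stood in 3 windows, at Cul3, slmb and rngo, against 2.7% of all. An E-box stood in 2, at Keap1 and Pngl, against 0.813%, while GAGA and M1BP stood in 1 each, both at slmb, against 1.64% and 1.07%, and CRE in 0 against 0.13%. The members' windows had a median GC content of 38.6%, against 33.7% over all windows. At least 1 of the 8 motifs stood in 8 of the 27 windows and in 10.7% of all, so most member summits had none of them within 50 bp. Counted from the motif's side, the 9 genes with 5 kb to either side held 70 Cnc-Maf core matches, of which 5 (7.14%) lay in a reproducible peak and 17 (24.3%) in a pooled peak. On the 6 arms, 1.32% of 44680 matches lay in a reproducible peak and 6.34% in a pooled peak. Peaks of any kind were also denser around the members: reproducible peaks covered 4.15% of the members' regions and 1.41% of the arms, and pooled peaks 18.9% and 7.55%. Whether the share of matches under peaks exceeds this difference in coverage was not tested, and the members' share in reproducible peaks rests on 5 matches. Neither the coverage nor the share of matches was computed for all genes with 5 kb to either side. Neither difference from the arms is thus shown to be particular to the members.

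The partner gene, maf-S (FBgn0034534, chr2R:20640976-20641668, plus strand), encodes the only small Maf protein of the fly, which has a DNA-binding zipper but no activation domain of its own. Its single reproducible summit within 1 kb of the TSS lay 633 bp downstream of it, in the 3′ untranslated region (UTR) of this short gene. The peak had a signal value of 251 (rank 4806 of 6153), with 101 in replicate 1 (rank 6380) and 143 in replicate 2 (rank 3806). It was nearer to the TSS of CG11110, 133 bp away, than to that of maf-S, and a Cnc-Maf core match in the 3′ UTR lay 52 bp from it. A TSS of rig was 928 bp from this summit. Among genes with a peak within 1 kb of a TSS, 13.1% had a lower highest peak than maf-S.

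At the maf-S promoter itself the replicates differed. Replicate 2 had a peak with its summit 125 bp upstream of the maf-S TSS, with a signal value of 189 (rank 2604), above its value for the 3′ UTR peak. Replicate 1 and the pooled list had no peak overlapping it. This was 1 of the 27 member peaks in the top 6153 of replicate 2, and over the whole list 63 of all 6153 (1.02%) overlapped neither a replicate 1 nor a pooled peak. In replicate 1, 0 of the members' 27 top peaks were of this kind, against 158 of 6153 (2.57%). The other reproducible summits near maf-S were 346 and 208, both beyond its 3′ end. The higher stood 66 bp from the TSSs of Tcs1 and of Polr3K, a subunit of RNA polymerase III, and the lower 22 bp from that of DMAP1, a chromatin protein. Replicate 1 had 231 and 91.6 there, and replicate 2 a single peak of 115 nearest to both. The maf-S promoter was thus marked in 1 replicate, and the reproducible signal stood at neighbouring promoters.

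Keap1 (FBgn0038475, chr3R:17073942-17079945, minus strand), the BTB-Kelch adaptor that binds the factor, had the most reproducible peaks of the 9 genes when flanks of 5 kb are included. There were 7 in the gene or within 5 kb, 6 of them within 1 kb of its 2 TSSs and 3 inside the gene. The highest, 793 (rank 860), lay in an intron 491 bp downstream of the inner TSS, with 328 in replicate 1 (rank 1429) and 433 in replicate 2 (rank 636). A further intronic peak of 412 stood 97 bp upstream of the inner TSS, with 170 in replicate 1 and 269 in replicate 2. The third intronic peak, 691, lay 679 bp downstream of the outer TSS, with 370 in replicate 1 and 388 in replicate 2. All 3 intronic peaks had a counterpart in both replicates, as did 97.6% of all reproducible peaks.

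At the outer Keap1 TSS the summit of 739 lay 35 bp upstream, with 354 in replicate 1 (rank 1284) and 376 in replicate 2 (rank 812), in the interval printed above between Keap1 and kuk. A lower summit of 212, 235 bp upstream of Keap1, stood 64 bp from the TSS of kuk, which encodes a nuclear envelope protein, and 24 bp from the E-box. Its values were 137 in replicate 1 (rank 4485) and 83.3 in replicate 2 (rank 8035). The peak of 530, 934 bp upstream of Keap1, lay in an intron of kuk, with 319 in replicate 1 and 255 in replicate 2. The last, 297, stood beyond the 3′ end at the promoters of mRpS11, a mitochondrial ribosomal protein, and Ns1, with 175 in replicate 1 and 144 in replicate 2. Counted by their nearest protein-coding TSS, 4 of the 7 peaks belong to Keap1, 2 to kuk and 1 to mRpS11. By this count sgg had more, since all 6 of its peaks were nearest to sgg. Among genes with a promoter peak, 77.1% had a lower highest peak than Keap1.

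**Figure D2:**
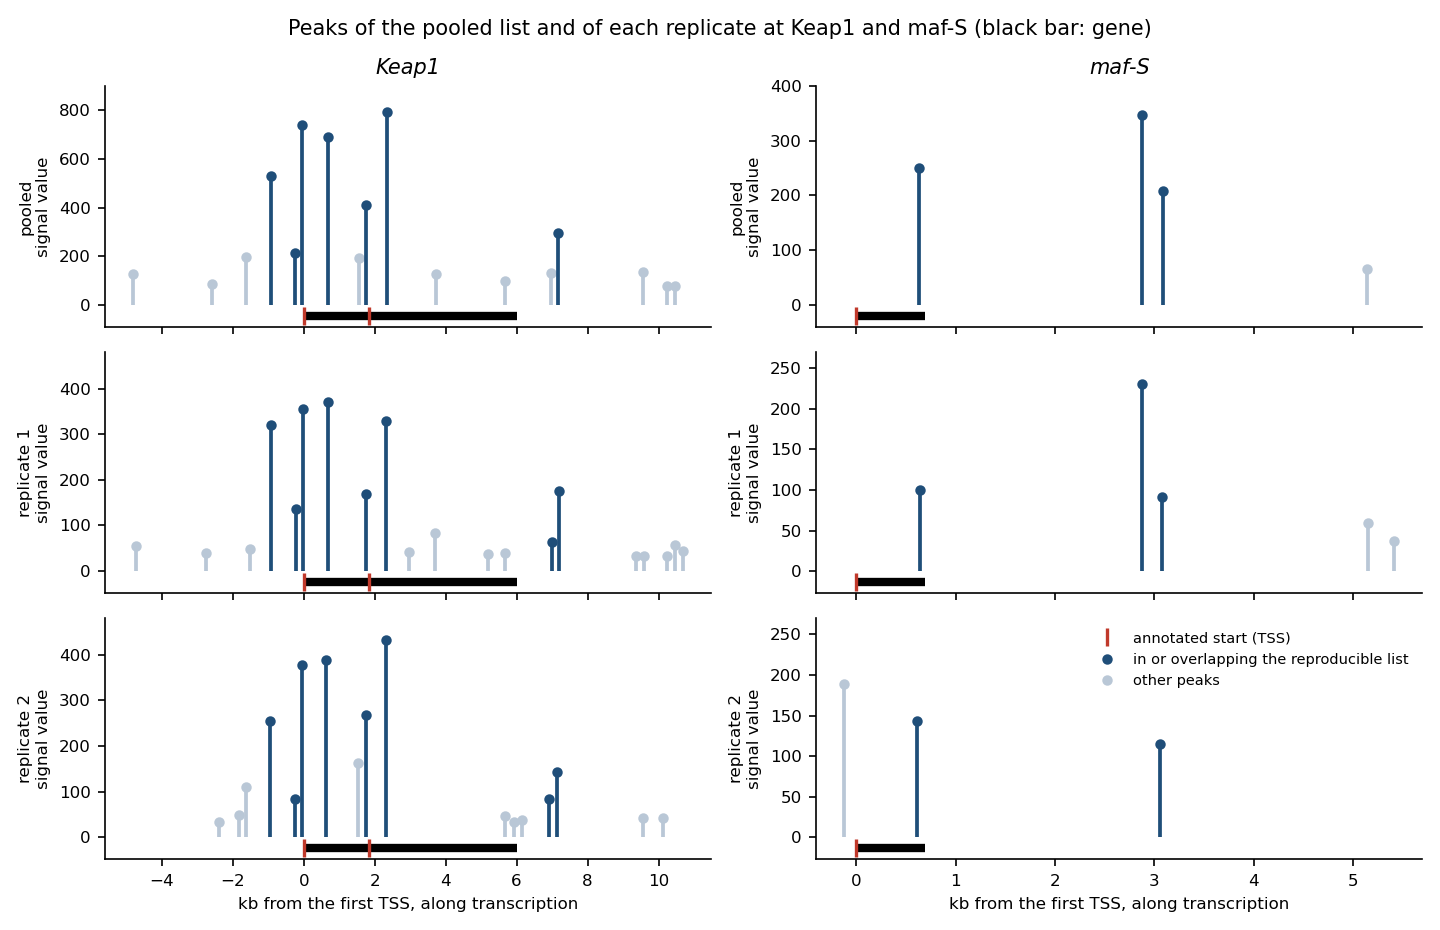
Peaks at Keap1 (left) and maf-S (right) in the pooled list and in each replicate list, by distance of the summit from the most upstream TSS (kb, along transcription) and signal value, whose scale differs between panels. Dark stems are in the reproducible list or overlap a peak of it; light stems are other peaks, black bars the genes and red ticks TSSs. At Keap1 each reproducible peak has a dark stem in each list, which the making of the reproducible list largely fixes. At maf-S the stem of 189 beside the TSS is in replicate 2 alone.

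Cul3 (FBgn0261268, chr2L:15265245-15272024, minus strand), the scaffold of the Keap1 ligase, had 1 reproducible summit within 1 kb of its 3 TSSs. It lay 12 bp downstream of the outermost TSS, in the 5′ UTR, with a signal value of 238 (rank 5128). Replicate 1 had 173 there (rank 3419) and replicate 2 had 61.3 (rank 12486), with summits 0 and 15 bp from the pooled summit. The replicate 2 peak was outside that list's top 6153. The highest replicate 2 peak within 1 kb of a Cul3 TSS was another, 60 bp downstream of TSS 2, with 98.1 (rank 6402), which overlapped a pooled peak but no replicate 1 peak and no reproducible peak. The replicates thus differed in which Cul3 promoter peak was the highest. The 2 other peaks were 277, nearest to yuri at 267 bp, with 111 in replicate 1 and 172 in replicate 2, and 222, nearest to UK114 at 911 bp, with 114 in replicate 1 and 85.2 in replicate 2. Among genes with a promoter peak, 10.3% had a lower highest peak than Cul3.

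Roc1a (FBgn0025638, chrX:647304-648597, plus strand), a RING protein that brings the ubiquitin-conjugating enzyme to cullins, had 1 reproducible peak, 302 bp upstream of its TSS. Its signal value was 206, at rank 6146 of 6153, where the lowest reproducible peak had 205.75. Replicate 1 had 141 (rank 4335), and replicate 2 had 89.5 (rank 7238) with a summit 238 bp from the pooled one. A second pooled peak of 196, 82 bp upstream of the TSS, was just outside the reproducible list. The replicate 2 summit, 64 bp upstream of the TSS, was nearer to this second peak. Replicate 2 had no other peak in the gene or within 5 kb. Roc1a was thus at the edge of the reproducible list, and 0.0225% of genes with a promoter peak had a lower one.

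The highest peaks at slmb and sgg were above those at Keap1, Cul3 and Roc1a. slmb (FBgn0283468, chr3R:21119252-21127485, minus strand), the F-box protein of the second ligase, had 2 reproducible peaks, both upstream of its TSS. The higher, 990 (rank 595), lay 38 bp from the TSS of slmb and 50 bp from that of CG5793, with 482 in replicate 1 (rank 770) and 493 in replicate 2 (rank 487). The M1BP motif of the printed interval stood 8 bp from this summit and the DRE 34 bp from it. The lower, 382, was 240 bp upstream of slmb, in the 5′ UTR of CG5793, with 323 in replicate 1 and 245 in replicate 2. The higher peak was thus within the highest 770 peaks of each replicate list. Among genes with a promoter peak, 83.5% had a lower highest peak than slmb, but the 87 bp between it and CG5793 place the summit at both promoters.

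sgg (FBgn0003371, chrX:2633952-2679553, plus strand) encodes the fly GSK3 kinase, which primes substrates for Slmb and also acts in Wingless signalling. It is the longest of the 9 genes, with 11 TSSs, and all 6 of its reproducible summits were intronic. The highest, 1009 (rank 573), stood 236 bp upstream of an internal start, TSS 9 counted from the most upstream, with 627 in replicate 1 (rank 492) and 389 in replicate 2 (rank 761). A summit of 250 in the same region, 37 bp from TSS 9, had 326 in replicate 1 (rank 1445) and 59.5 in replicate 2 (rank 13083). Downstream of the same start, 671 at 883 bp had 324 in replicate 1 and 347 in replicate 2. At 1499 bp, a peak of 407 with the Cnc-Maf core printed above had 229 in replicate 1 and 191 in replicate 2. The remaining summits were 308, 223 bp upstream of TSS 5, with 129 in replicate 1 and 164 in replicate 2, and 207 in a distant intron, with 162 in replicate 1 and 74.8 in replicate 2 (rank 9362). Of the 11 TSSs, 3 had a reproducible summit within 1 kb and 8 a pooled summit, and the 2 most upstream had no pooled summit within 1 kb. The sgg signal thus gathered around 1 internal start. No other protein-coding TSS lay within 1 kb of any of these 6 summits, and 84.0% of genes with a promoter peak had a lower highest peak.

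The processing genes covered a wide range. TER94 (FBgn0286784, chr2R:9989159-9993559, plus strand), the ATPase that extracts proteins from the endoplasmic reticulum membrane, had a single reproducible peak. It lay 27 bp upstream of the outermost of its 3 TSSs, with a signal value of 744 (rank 977), 397 in replicate 1 (rank 1066) and 354 in replicate 2 (rank 936). The summit fell in an exon of the non-coding gene lncRNA:CR45324, and no other protein-coding TSS was within 1 kb. Both replicates placed TER94 near the same rank, and 74.1% of genes with a promoter peak had a lower one. The flank of TER94 also held the only match to the whole Cnc-Maf consensus among the 9 regions, 1777 bp from the summit and in no peak of the pooled list.

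Pngl (FBgn0033050, chr2R:6017739-6020695, plus strand), the glycan-removing enzyme, had a reproducible summit 226 bp upstream of its TSS with a signal value of 269 (rank 4388). Replicate 1 had 106 (rank 6000) and replicate 2 had 125 (rank 4595). This window was also the most AT-rich of the 27, with 19.8% GC, and held an E-box. The higher peak of its region, 303, was 122 bp from the TSS of Act42A, a cytoplasmic actin gene, with 170 in replicate 1 and 191 in replicate 2. Pngl was low in both replicates, with 18.9% of genes with a promoter peak below it. rngo (FBgn0030753, chrX:16441433-16445367, plus strand), the aspartic protease, had a summit 29 bp downstream of its TSS in the 5′ UTR with a signal value of 425 (rank 2382). Replicate 1 had 178 (rank 3309) and replicate 2 had 215 (rank 2154). The TSS of Cdc50, a subunit of lipid flippases, was 166 bp away, across the printed interval, whose DRE stood 129 bp and whose AP-1 motif 144 bp from the summit. The DRE counted above within 50 bp of this summit was another match, outside the printed interval. With 47.4% of genes with a promoter peak below it, rngo stood in the middle. The remaining rngo peak, 288, was that of eIF4H1, a translation initiation factor, 53 bp from its TSS and 310 bp from that of CG34015, with 111 in replicate 1 and 147 in replicate 2.

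Across the 9 genes, the 27 reproducible peaks merged into 23 regions. All 27 overlapped a peak of both replicates by at least 1 bp, which the making of the reproducible list largely fixes, since 97.6% of all 6153 did so. The nearest overlapping replicate peak was among that list's top 6153 in 25 peaks for replicate 1 and 21 for replicate 2, and in both for 19, against 68.6% of all. By genes, 6 of the 9 had a reproducible summit within 1 kb of a TSS that met this in both replicates, against 25% of all genes, and those without were maf-S, Roc1a and Cul3. The pooled and replicate summits were close, a median of 20 bp apart for replicate 1 and 15 bp for replicate 2. Over all reproducible peaks these medians were 18 bp and 16 bp. Since the nearest replicate peak was taken, and the pooled summits come from both replicates, short distances are largely fixed by the method. The distance was over 100 bp for 1 of the 27 peaks in replicate 1, at Cul3, and for 3 in replicate 2, at Roc1a, maf-S and Pngl, against 6.52% and 6.2% of all. The highest −log10 q value in the pooled list, 3.86, was reached by 13 of the 27 peaks and by 58.9% of all reproducible peaks, and the lowest among members was 2.48, at Roc1a.

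**Figure D3:**
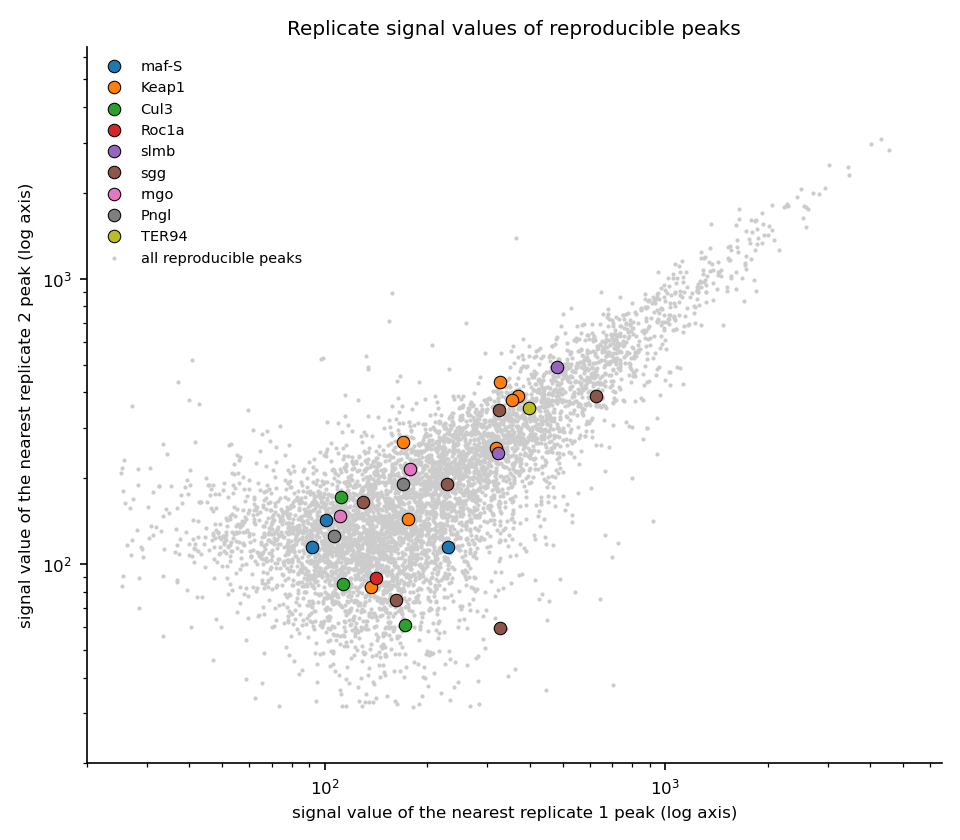
Signal value of the nearest overlapping peak in replicate 1 (horizontal) and replicate 2 (vertical), on log axes, for the 27 member peaks (coloured by gene) and all reproducible peaks with a peak in both lists (grey). The member peaks lie within the grey cloud, and the farthest from the others are the sgg peak with 326 and 59.5 and the Cul3 promoter peak with 173 and 61.3.

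By position, 18 of the 27 summits lay within 1 kb of the member's own TSS, 12 of them upstream and 6 downstream, and 9 lay farther away. Within 1 kb of any protein-coding TSS there were 25. The annotation at the summit was intron for 10, intergenic for 10, 5′ UTR for 5, 3′ UTR for 1 and non-coding exon for 1. Neighbouring protein-coding genes with a TSS within 1 kb numbered 15, and the promoter peaks of Keap1, slmb, maf-S and rngo were shared with 1 or more of them. No share over all reproducible summits is given for these positions, so they are not shown to be particular to the members. The median signal of the 27 peaks was 308, against 353 over the list, and 12 stood above that median. Below the reproducible list, the 9 regions held another 74 pooled peaks with values of 62.9 to 201. Of the members' peaks in the replicate lists, 77 of 112 (68.8%) of replicate 1 overlapped replicate 2 and 70 of 94 (74.5%) the reverse, against 62.0% and 62.6% over the whole lists.

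Genes that work with the 9 were looked at in the same way, by lists of symbols and with the same background of 31.9%. Of 25 further genes of cullin ligases, of the neddylation that activates cullins and of the COP9 signalosome that reverses it, 19 (76%) had a reproducible summit within 1 kb of a TSS. The highest were Uba3 with 1261 (852 in replicate 1 and 381 in replicate 2) and APP-BP1 with 1237 (549 in replicate 1 and 621 in replicate 2). These encode the 2 subunits of the enzyme that activates the ubiquitin-like protein Nedd8. KLHL18, a BTB-Kelch protein like Keap1, had 1210 (596 in replicate 1 and 613 in replicate 2). The Cul3 adaptor rdx had 1162 (538 in replicate 1 and 610 in replicate 2). The Uba3 summit was nearer to the TSS of tum (71 bp) than to its own (192 bp), and that of KLHL18 nearer to GCC185 (142 bp against 196 bp), while Irbp18 had a TSS 261 bp from the APP-BP1 summit. Of the 19 peaks, 14 had a TSS of another protein-coding gene within 1 kb and 8 had it nearer than the listed gene's. Of the 4449 protein-coding genes with a promoter summit, 3205 had one with no other protein-coding TSS nearer. That count takes any summit rather than the highest, so sharing is not shown to be particular to this list or the next ones. The median over the 19 was 434, close to the 446 of all genes with a promoter peak, and the genes without were Cul4, Roc1b, Roc2, CSN1b, CSN4 and CSN6.

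Of 17 names for TER94 cofactors and degradation at the endoplasmic reticulum, 16 matched a gene and Sel1L did not, and 13 of the 16 (81.3%) had a promoter peak. Hrd3, of the ligase complex in the membrane of the endoplasmic reticulum, had 2083 (rank 114), with 1057 in replicate 1 and 1038 in replicate 2. Plap had 1090 (574 in replicate 1 and 514 in replicate 2), Faf2 had 1058 (515 in replicate 1 and 507 in replicate 2) and Edem2, a mannosidase-like protein, had 1002 (784 in replicate 1 and 304 in replicate 2). The Hrd3 summit lay 109 bp from its TSS and 213 bp from that of PTPMT1, and the Plap summit 2 bp from its own and 100 bp from that of CG31922. The Faf2 and Edem2 summits were nearer to Grip71 and CG16974, at 71 and 75 bp, than to their own TSSs at 87 and 147 bp. Of the 13 peaks, 9 had a TSS of another protein-coding gene within 1 kb and 4 had it nearer. The median over the 13 was 436. Der-1, Der-2 and casp had none. Of 8 partners and substrates of Sgg, 6 (75%) had a promoter peak, with a median of 468. The highest were CkIalpha, a kinase that primes Sgg substrates, with 582, Apc2 with 560, the kinase Akt with 521 and par-1 with 414. A TSS of another protein-coding gene lay within 1 kb of 2 of the 6 peaks, nearer in 0, and at Apc2 it was that of mRpS24. The paralog gskt and the scaffold gene Axn had no promoter peak. Over all lists 38 of 49 genes (77.6%) had a promoter peak, and their median of 435 was close to the 425 of the 9 described genes and the 446 of all.

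**Figure D4:**
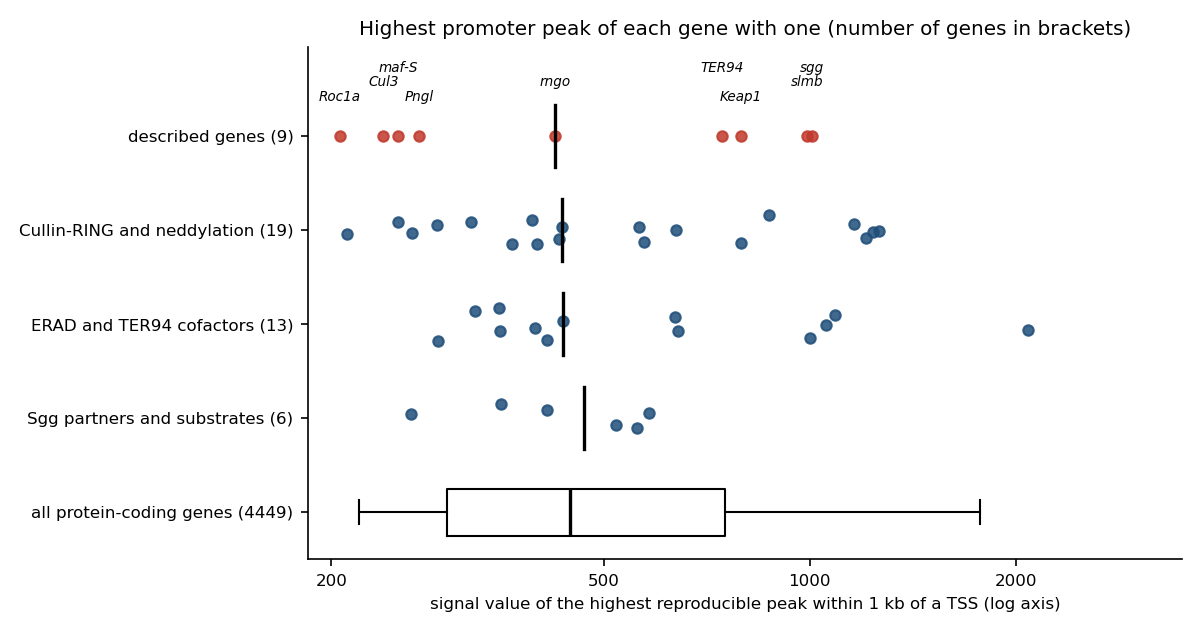
Signal value (log axis) of the highest reproducible peak within 1 kb of a TSS for the 9 described genes, the genes of the related lists and all protein-coding genes, counting only genes with such a peak. Points are genes, vertical black lines are medians, and the box spans the quartiles (295 to 753 for all genes) with whiskers at percentiles 5 and 95. The medians of 425, 434, 436, 468 and 446 lie close together, and Hrd3 is the highest point at 2083.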

How the data were processed

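Peak lists in the narrowPeak layout on dm6 were analysed. Each list's signal value and −log10 q value were deposited by the authors; the p-value column holds a placeholder. Per the deposited file lists, replicate and pooled lists were called on the alignments against a control, and the reproducible list was obtained from the lists of the replicates, with another list that was not used here, by their irreproducible discovery rate. For the aligner, the caller and the cut-off of that rate, the sources used here give nothing. Chromatin was sonicated to size ranges of 325 to 425 bp (replicate 1) and 325 to 450 bp (replicate 2), per the labels. The labels call the replicates biological. Lists on dm3 were not used.

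Summits were assigned to Ensembl release 115 gene models on dm6, with coordinates counted from 1, in Python 3.11.15 (numpy 2.4.6, pandas 2.3.3), after the assignment was tested on simulated peaks. A replicate value is that of the peak overlapping by at least 1 bp whose summit is nearest, so neighbouring summits can share it. CSN2, Ufd1-like and Plaa were matched by older symbols, as alien, Ufd1 and Plap. The members and lists were chosen with earlier results of these data known. The text names the 9 members, protein-coding genes with a TSS within 1 kb of their reproducible summits, and the 4 highest genes of each list. Genes of the lists without a peak, genes beside the peaks of listed genes, and the sequences other than the window around the highest sgg summit, were chosen after their values were seen. Alternatives covered distances, overlap, window width, the peak list and each replicate alone.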

Additional observations from a re-analysis of the deposited data

How the results depend on the processing

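The counts at promoters and around genes mostly held under other settings. All 9 genes also had a reproducible summit within 1 kb of the gene, within 10 kb, or by peak overlap. Of all genes, 38.1%, 68.9% and 57.0% did so. Inside the gene body 5 of the 9 had one, against 15.3% of all genes. Among the upper 3076 reproducible peaks, 5 of 9 genes had a summit within 5 kb, against 41.8% of all genes. Within 1 kb of a TSS 5 had one, against 20.3%. With each replicate list alone, taken to 6153 peaks, the count within 5 kb was 8 to 9, against 56.1% to 57.0% of all genes. Roc1a was missing without replicate 1. The count within 1 kb of a TSS was 7 to 8, against 31.2% to 32.0% of all genes. It lacked maf-S without replicate 2, and Cul3 and Roc1a without replicate 1. Within 500 bp of a TSS of the reproducible list's genes the count was 8, without maf-S, against 28.4% of all genes. The Cnc-Maf core stood in 4 of 27 windows of 100 bp to either side of the summit, against 5.95% of all, and in 1 of 27 of 25 bp, against 1.02%. For each gene the highest peak in the gene or within 5 kb was also taken, at times one nearest to another gene's TSS. The median percentile of these 9 peaks was 92.1 in the pooled list and 92.1 to 92.8 in the replicate lists. Percentiles were among all 30000 peaks of a list, and no such value was computed over all genes. The related genes numbered 38 to 39 of 49 with either replicate alone, against 31.2% to 32.0% of all genes. In the upper 3076 peaks they numbered 28, against 20.3% of all genes. No paired analysis was possible because there was 1 group and no test. The unknown depth limits every statement on a missing peak.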
